A study of Xenopus tropicalis with 24 samples.

Results

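The mitosis genes described here are 45 named genes whose products drive entry into mitosis, check the spindle, attach and separate the chromosomes and cut the cell apart. A gene of the count table was taken when its name equalled a listed symbol, or did so after a final dot and digits were removed. The second condition added ccnb1.2, prc1.2 and racgap1.2, which gave 48 of the 26531 genes in the table. The samples came from Xenopus tropicalis tadpoles at stage 54 and were intestine or tail. This is a stage before natural metamorphosis when the tissues already respond to added thyroid hormone. Tadpoles labelled TRDKO, which the series sets up as lacking thyroid hormone receptor, and wild-type (WT) tadpoles were kept for 18 h at 25 °C with 5 nM T3, the active thyroid hormone, or without it (control). Each organ thus had TRDKO T3, TRDKO control, WT T3 and WT control groups of 3 libraries each, 24 libraries in all. The comparisons ask what T3 did to these transcripts in each organ, and whether that differed between tadpoles labelled TRDKO and WT. The receptor lesions, and whether a library holds 1 animal or a pool, are not given in the sources used here, so p-values describe the spread between libraries, which may be technical.

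Cells enter mitosis when the kinase cdk1 binds a B-type cyclin, and polo-like and aurora kinases then drive centrosome separation and spindle assembly. The spindle checkpoint holds the cell back until every kinetochore is attached, after which cdc20 activates the anaphase-promoting complex, separase cuts cohesin and the chromosomes part. Transcripts of most of these genes accumulate late in the cell cycle, so in a tissue their level is widely read as a marker of dividing cells. In tadpoles T3, acting through thyroid hormone receptors, is known to kill larval cells and, in the intestine, to drive the division of cells that form the adult epithelium, while the tail is resorbed at the end of metamorphosis. In bulk tissue, fewer dividing cells and less of a transcript in each cell cannot be told apart.

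Library totals ranged from 17577407 to 24699154 counted fragments, and the values below are CPM, counts scaled to each library's effective size, within each organ, so that levels are compared between intestine and tail only where a fit over both organs is named. Tail WT control replicates 1 and 3 agreed within sampling noise (mean chi-square 1.01 over 15826 genes) and were counted as 1 sample, which leaves n = 2 in that group, and their values are still printed separately. Other pairs near that level were kept as separate samples: tail TRDKO T3 replicates 1 and 2 (1.05), intestine WT T3 2 and 3 (1.09), intestine WT control 1 and 3 (1.09) and tail WT control 2 and 3 (1.12). Small p-values may thus rest on libraries that hardly differ. Intestine TRDKO T3 replicate 3 stood apart from replicates 1 and 2 (mean chi-square 22.8 and 27.6, against at most 2.15 in any other pair of replicates), so results that rest on it are also given without it. The 15 enterocyte markers summed to 24259 to 39718 CPM in intestine libraries and 16.4 to 270.2 CPM in tail libraries, and the skeletal muscle markers to 21946 to 31087 CPM in tail libraries and 2.14 to 7.37 CPM in intestine libraries, as the organ labels say. The spread between libraries was small in tail (coefficient of variation from the fit 1.68%, against 6.28% in intestine), so that changes as small as 0.10 on the log2 scale passed there. Both receptor genes were counted in every library: thra at 3.39 to 13.4 CPM in TRDKO and 4.04 to 10.01 CPM in WT libraries, and thrb at 4.45 to 56.2 CPM in TRDKO and 3.06 to 60.7 CPM in WT libraries. These ranges pool organs and treatments. Mean thrb in TRDKO was 32.9 CPM with T3 and 4.67 CPM in control intestine, and 54.4 and 27.8 CPM in tail. In WT it was 60.05 and 3.12 CPM in intestine, and 57.8 and 7.68 CPM in tail. The cause of the higher thrb in TRDKO T3 libraries was not tested. In intestine TRDKO T3 replicates 1, 2 and 3 thra was at 11.4, 13.4 and 3.39 CPM. Since the position of the lesions is not given, the labelled genotype cannot be checked from these counts.

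The WT control libraries also differed from all others in stress transcripts, which touches every comparison against them. The inducible chaperone hspa1b was at 0.257 ± 0.118 CPM in TRDKO T3, 0.180 ± 0.0739 CPM in TRDKO control and 0.292 ± 0.0524 CPM in WT T3 intestine (SD, n = 3 each), against 399.6 ± 8.57 CPM in WT control intestine (n = 3). In tail the means were 0.790 ± 0.149 CPM in TRDKO T3, 0.561 ± 0.145 CPM in TRDKO control and 0.508 ± 0.131 CPM in WT T3 (n = 3 each), against 64.8 ± 0.534 CPM in WT control (n = 2). Of 22 heat shock chaperones, a list chosen after their values were seen, 19 of 21 tested fell in TRDKO control relative to WT control intestine and 19 of 22 in tail. Of all tested genes 28.7% were called lower in intestine and 36.6% in tail. Since the list was chosen from these values, its counts are not separate support. Under T3, where WT control libraries are not used, 3 rose and 6 fell in TRDKO relative to WT intestine, with a median log2 fold change of -0.14. In tail 8 rose and 9 fell, with a median of 0.07. The shares of all tested genes were 25.1% higher and 24.3% lower in intestine, and 34.1% and 31.4% in tail, so the tail counts lie near them. The part of this stress state in the mitosis gene results was not tested.

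Of the 48 genes, 45 passed the filter on low counts in intestine and 46 in tail. The B-type cyclin listed as ccnb1 had 1 count over the 24 libraries and birc5, which encodes survivin, had 3, so neither was tested in any comparison. The related gene birc5l, outside the rule, had 2630 counts and was looked up after this was seen. It rose by 1.004 ± 0.15 on the log2 scale in TRDKO relative to WT control intestine and by 2.56 ± 0.14 in tail. racgap1.2 had 0 to 5 counts per intestine library and was tested in tail, and in a joint fit of intestine and tail. The copies lie apart in the genome rather than in tandem: ccnb1 on chromosome 1 and ccnb1.2 on chromosome 4, prc1 on 3 and prc1.2 on 1, racgap1 on 2 and racgap1.2 on 9. Reads that align equally to such copies were counted at their primary alignment, so the split between copies is uncertain.

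The genes lie on many chromosomes of the XENTR_10.0 annotation, whose spans matched the UCB_Xtro_10.0 gene table for all 48. Among the genes followed in every library below, cdk1 spans chr7:16802494-16811397, the checkpoint gene bub1b chr8:114295245-114329695 and the anaphase activator cdc20 chr4:88482938-88491181. The kinetochore gene ndc80 spans chr2:3357189-3374976, the passenger complex kinase aurkb chr3:144373126-144381236 and the spindle motor kif11 chr7:25625355-25645236. The midzone bundler prc1 spans chr3:108133765-108151479, top2a spans chr10:8619589-8651732, and the cyclin gene ccnb3, which moved most in several comparisons, spans chr8:39428311-39439872. Per kilobase of exons, on the scale of the fit over both organs, cdk1 had the highest level when averaged over the 8 groups, at 24.2 RPKM (fragments per kilobase of exon, scaled to library size), followed by the checkpoint gene bub3 at 15.6 and ccnb1.2 at 13.3 RPKM. Then came the centrosome kinase nek2 at 13.2 and the centromeric histone cenpa at 11.4 RPKM. These averages hide differences between the groups: nek2 exceeded cdk1 in WT tail, at 26.5 against 12.5 RPKM in WT T3 and 20.3 against 4.92 RPKM in WT control, and bub3 averaged 14.4 RPKM in WT control intestine, where cdk1 averaged 13.6 RPKM. The lowest of the tested genes were the large kinetochore genes cenpe, cenpf and knl1, at 0.881, 0.858 and 0.615 RPKM, and separase (espl1) at 0.318 RPKM.

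Summed over the 48 genes, mitosis transcripts were more abundant in every TRDKO library than in any WT library of the same organ. The T3 libraries had the higher sums in TRDKO intestine and WT tail, and the lower sums in WT intestine and TRDKO tail. In intestine the sum was 873, 878 and 909 CPM in TRDKO T3, 569, 561 and 566 CPM in TRDKO control, 297, 301 and 302 CPM in WT T3 and 323, 319.6 and 322 CPM in WT control libraries. No library of one intestine group reached the range of another. T3 thus went with a sum 1.57 times the control sum in TRDKO and 0.933 times in WT intestine. In tail the sum was 936, 938 and 932 CPM in TRDKO T3, 1103, 1099 and 1097 CPM in TRDKO control, 513, 525 and 523 CPM in WT T3 and 359.8, 360.4 and 358 CPM in WT control libraries. Here too the groups did not overlap, but TRDKO control stood above TRDKO T3, and the T3 sum was 0.850 times the control sum in TRDKO and 1.45 times in WT tail. Relative to WT, the TRDKO control sum was 1.76 times as high in intestine and 3.06 times in tail.

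**Figure D1:**
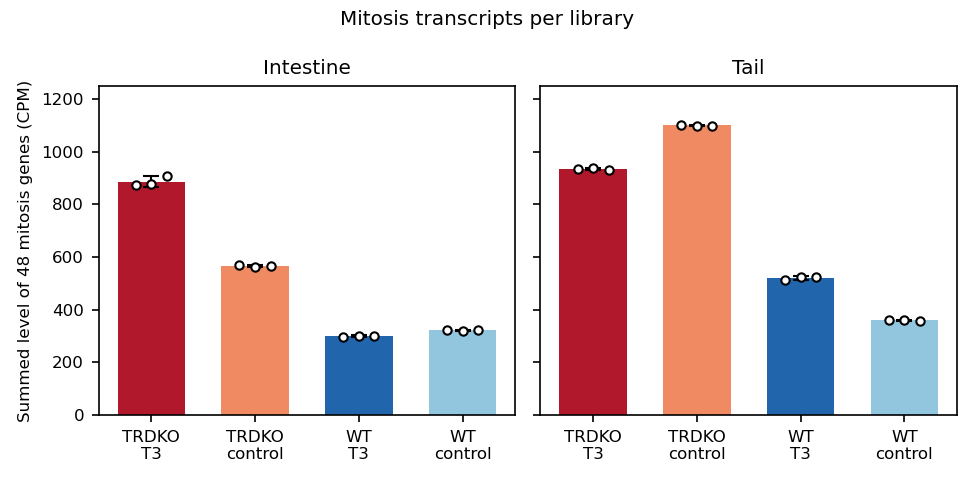
Summed level of the 48 mitosis genes (CPM, scaled within each organ) in every library of intestine (left) and tail (right), with circles for libraries, bars for group means and whiskers for SD (n = 3, n = 2 in tail WT control, whose circles 1 and 3 were counted as 1 sample). The TRDKO groups stand above the WT groups in both organs, with the highest mean in TRDKO T3 (887 CPM) in intestine and in TRDKO control in tail.

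The highest group was much the same gene by gene, while the lowest group varied more in intestine. In intestine 44 of 45 tested mitosis genes had their highest mean in TRDKO T3, where 21.4% of all tested genes had theirs, and the exception, nek2, was highest in TRDKO control. The lowest mean fell in WT T3 for 31 genes, in WT control for 13 and in TRDKO control for 1, spc25. Of all tested genes 27.8% were lowest in WT T3, 30.6% in WT control and 21.6% in TRDKO control intestine. The WT control count thus lies near the share of all genes. In tail 41 of 46 tested genes were highest in TRDKO control, where 22.2% of all tested genes were. In WT control tail 42 were lowest, as 34.6% of all tested genes were. The tail exceptions were mad2l1, spc24 and bub3, highest in TRDKO T3, nek2, highest in WT T3, and racgap1.2, highest in WT control.

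8 genes, 1 per mitotic role, show the intestine levels library by library. cdk1 had 58.2, 59.3 and 70.6 CPM in TRDKO T3, 37.4, 38.8 and 37.9 CPM in TRDKO control, 19.9, 21.7 and 19.5 CPM in WT T3 and 16.003, 16.5 and 18.5 CPM in WT control libraries. The TRDKO T3 libraries were the highest and the 2 WT groups, which did not overlap each other, the lowest. bub1b, a checkpoint protein that restrains cdc20, had 5.20, 6.44 and 6.53 CPM in TRDKO T3, 4.37, 3.45 and 4.33 CPM in TRDKO control, 2.80, 2.34 and 3.26 CPM in WT T3 and 3.08, 2.60 and 2.27 CPM in WT control libraries. Its TRDKO groups did not overlap the WT groups, and its WT groups overlapped each other. cdc20 itself had 25.96, 24.7 and 30.7 CPM in TRDKO T3, 16.3, 16.2 and 15.8 CPM in TRDKO control, 12.1, 12.5 and 12.3 CPM in WT T3 and 6.54, 5.87 and 5.59 CPM in WT control libraries. Unlike bub1b it was higher in every WT T3 than in every WT control library. ndc80, part of the complex that grips spindle microtubules, had 12.5, 10.97 and 12.1 CPM in TRDKO T3, 7.401, 7.28 and 6.97 CPM in TRDKO control, 3.75, 3.79 and 3.17 CPM in WT T3 and 3.76, 3.43 and 3.71 CPM in WT control libraries. Its WT T3 and WT control libraries overlapped.

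The other 4 genes of the 8, like ndc80, had their lowest mean in WT T3. aurkb, the kinase of the chromosomal passenger complex that corrects faulty attachments, had 17.98, 17.5 and 17.7 CPM in TRDKO T3, 10.7, 10.3 and 12.01 CPM in TRDKO control, 4.85, 4.85 and 5.20 CPM in WT T3 and 6.21, 5.82 and 4.76 CPM in WT control libraries. kif11, the motor that pushes spindle poles apart, had 24.4, 24.9 and 23.9 CPM in TRDKO T3, 13.4, 12.7 and 13.7 CPM in TRDKO control, 4.90, 5.10 and 5.01 CPM in WT T3 and 7.52, 6.75 and 7.38 CPM in WT control libraries. For kif11 every WT T3 library lay below every WT control library, whereas for aurkb the WT groups overlapped. prc1, which bundles microtubules between the parting chromosomes, had 44.3, 48.5 and 41.2 CPM in TRDKO T3, 22.3, 22.9 and 24.6 CPM in TRDKO control, 7.35, 7.36 and 7.42 CPM in WT T3 and 10.1, 11.7 and 11.4 CPM in WT control libraries. top2a, the topoisomerase that untangles sister chromatids, had 33.6, 32.6 and 24.9 CPM in TRDKO T3, 16.04, 14.8 and 17.1 CPM in TRDKO control, 7.199, 7.36 and 7.18 CPM in WT T3 and 9.16, 9.61 and 11.6 CPM in WT control libraries. Both genes fell into 4 groups without overlap, and for top2a replicate 3 of TRDKO T3 was the lowest of its group. Such separation was common among all genes. Between TRDKO and WT control 43 of 45 mitosis genes lay wholly above and 1 wholly below, against 36.0% and 36.2% of all tested genes. Under T3 it was 44 and 0, against 24.5% and 26.2%. For T3 against control it was 8 and 26 in WT, against 36.4% and 36.7%. In TRDKO it was 44 and 1, against 23.2% and 23.9%.

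**Figure D2:**
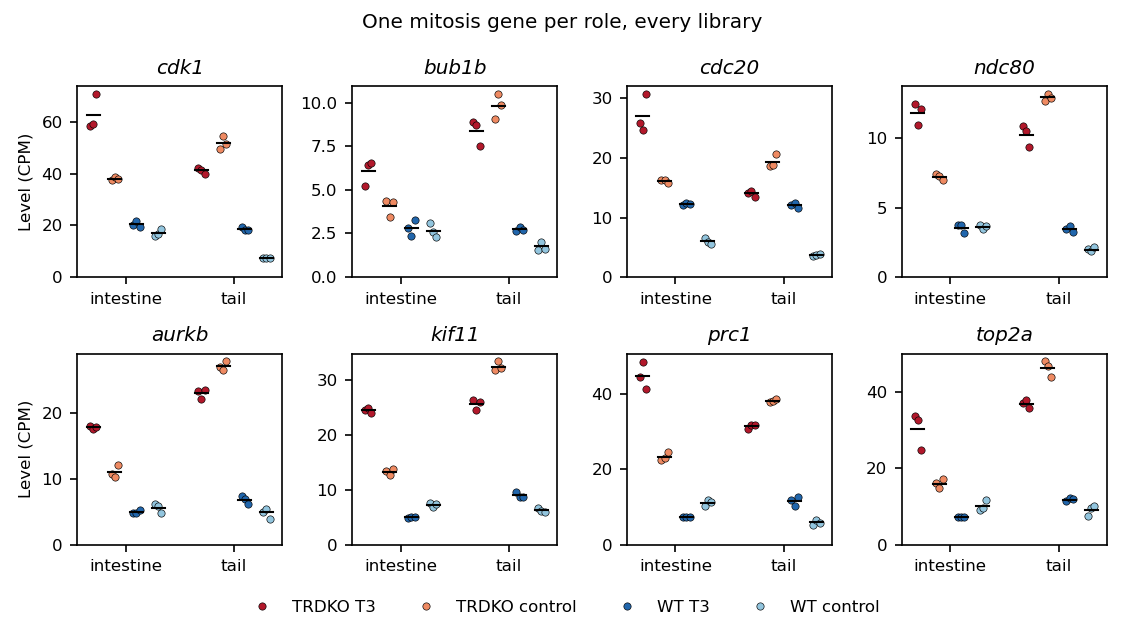
Level (CPM, scaled within each organ) of 1 gene per mitotic role in every library, with points for libraries and short lines for group means (n = 3, n = 2 in tail WT control). In all 8 genes the TRDKO points lie above the WT points of the same organ, and the highest TRDKO group is T3 in intestine and control in tail.

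Without hormone, mitosis transcripts were higher in TRDKO than in WT intestine. Of 45 genes 43 rose, 0 fell and 2, mad2l1 and spc25, did not pass (adjusted p under 0.05, edgeR quasi-likelihood test with Benjamini-Hochberg adjustment), against 29.1% of all tested genes called higher and 28.7% lower. The median log2 fold change was 0.89, and 33 genes rose at least 1.5-fold, as 14.5% of all tested genes did. The 7 entry kinases and cyclins, the 7 genes of the central spindle and cytokinesis and the 4 spindle motors and microtubule binders all rose at least 1.5-fold. Of 10 centromere and kinetochore genes 9 rose, 5 of them at least 1.5-fold, and of 7 chromosome structure genes 7 rose, 3 of them at least 1.5-fold. The cyclin ccnb3 had 29.5, 27.9 and 38.2 CPM in TRDKO T3, 22.7, 23.2 and 22.4 CPM in TRDKO control, 12.2, 12.2 and 11.8 CPM in WT T3 and 5.24, 5.30 and 4.85 CPM in WT control libraries, and its TRDKO control libraries lay above WT control, by a log2 fold change of 2.15 ± 0.11 (SE, adjusted p = 1.5e-09). The polo-like kinase plk1, which drives centrosome maturation, had 27.2, 27.2 and 28.6 CPM in TRDKO T3, 16.04, 16.4 and 15.6 CPM in TRDKO control, 5.95, 4.98 and 4.35 CPM in WT T3 and 5.62, 5.87 and 5.42 CPM in WT control libraries. plk1 rose by 1.51 ± 0.09 on the log2 scale and cdc20 by 1.42 ± 0.09. For both the groups did not overlap, which adds no support, since both are among the largest rises. bub3 rose by only 0.15 ± 0.06, and spc25, a partner of ndc80, stood at -0.16 ± 0.08 with adjusted p = 0.138. In this comparison 19 of 21 heat shock chaperones fell, with a median of -4.18. With upper-quartile scaling 61.4% of all calls in this comparison were higher, against 50.3% here, and the median of the mitosis genes was 0.98.

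Other cell types moved with these groups. The 13 exocrine pancreas markers summed to 249.9 to 319 CPM in TRDKO T3, 6383 to 6829.5 CPM in TRDKO control, 1045 to 1061 CPM in WT T3 and 52.7 to 53.96 CPM in WT control intestine, with cela1.2, prss1 and ptf1a at 0 in WT control. In TRDKO relative to WT control intestine 9 of 11 tested pancreas markers rose and 1 fell. Tested markers at 0 in WT control passed the filter on low counts through other groups, so their calls as higher add nothing to it. Of all tested genes 29.1% were called higher and 28.7% lower in that comparison. The 12 hepatocyte markers summed to 724 to 853 CPM in TRDKO T3, 51.5 to 53.9 CPM in TRDKO control, 15.5 to 16.4 CPM in WT T3 and 60.8 to 61.3 CPM in WT control, with 6 of them at 0 in WT T3 and alb, fgb and ahsg at 0 in WT control. Erythrocyte markers rose in 10 of 11 and endothelial markers in 8 of 9 cases in TRDKO control relative to WT control. The erythrocyte sums were 587 to 819.8 CPM in TRDKO T3, 922 to 977 CPM in TRDKO control, 958 to 1005 CPM in WT T3 and 589 to 599 CPM in WT control. Intestinal stem cell markers summed to 202 to 221 CPM in TRDKO T3, 184 to 194 CPM in TRDKO control, 217 to 225 CPM in WT T3 and 179 to 182 CPM in WT control, with ascl2 at 0 in all 4 groups. The 8 smooth muscle markers summed to 4796 to 5165 CPM in TRDKO T3, 6792 to 7179.6 CPM in TRDKO control, 7904 to 8357 CPM in WT T3 and 6152 to 6427 CPM in WT control. The 8 macrophage and granulocyte markers summed to 166 to 173 CPM in TRDKO T3, 106 to 115 CPM in TRDKO control, 129 to 131 CPM in WT T3 and 96.7 to 101 CPM in WT control, with lyz at 0 in WT T3. The 15 enterocyte markers summed to 35088 to 39718 CPM in TRDKO T3, 24259 to 26203 CPM in TRDKO control, 30238 to 32622 CPM in WT T3 and 29491 to 31537 CPM in WT control. The part of these cell types in the mitosis results was not tested.

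In TRDKO intestine nearly all tested mitosis genes were higher in T3 than in control libraries. Of 45 genes 42 rose, 1 fell and 2 did not pass, cenpa and spc24 (20.6% of all tested genes were called higher and 20.3% lower), with a median log2 fold change of 0.73. At least 1.5-fold rises were found in 32 genes, against 6.40% of all tested genes. The largest was in kif2c, a kinesin that shortens microtubules at kinetochores, with 11.1, 9.37 and 10.2 CPM in TRDKO T3, 5.38, 4.35 and 4.59 CPM in TRDKO control, 2.50, 1.79 and 1.65 CPM in WT T3 and 2.87, 3.33 and 2.67 CPM in WT control libraries. kif2c rose by 1.09 ± 0.12 on the log2 scale (adjusted p = 7.5e-06, edgeR quasi-likelihood test with Benjamini-Hochberg adjustment), although its WT T3 libraries all lay below WT control. anln, the scaffold of the contractile ring, had 21.1, 19.9 and 18.1 CPM in TRDKO T3, 10.2, 10.1 and 9.09 CPM in TRDKO control, 3.5996, 2.98 and 4.21 CPM in WT T3 and 6.38, 5.66 and 6.42 CPM in WT control libraries, and ect2, which acts in cytokinesis, had 14.1, 14.2 and 13.2 CPM in TRDKO T3, 7.03, 6.52 and 7.72 CPM in TRDKO control, 2.6997, 2.85 and 2.03 CPM in WT T3 and 3.72, 3.53 and 3.32 CPM in WT control libraries. anln rose by 1.01 ± 0.09 and ect2 by 0.97 ± 0.09, and all 7 tested genes of the central spindle and cytokinesis rose at least 1.5-fold. The fall was in nek2, a kinase that separates the centrosomes, which had 7.97, 8.21 and 9.55 CPM in TRDKO T3, 11.4, 11.6 and 11.7 CPM in TRDKO control, 8.05, 7.95 and 8.98 CPM in WT T3 and 6.67, 6.23 and 7.603 CPM in WT control libraries and a log2 fold change of -0.44 ± 0.09 (adjusted p = 0.00144). Without TRDKO T3 replicate 3 the counts were 42 higher and 1 lower, with a median of 0.69. The calls over all genes were then 9004 in place of 6343. In the same comparison 6 of 9 hepatocyte markers rose, 10 of 11 pancreas markers fell and 5 heat shock chaperones rose while 4 fell. Likewise 7 of 8 smooth muscle and 7 of 11 erythrocyte markers fell, and 7 of 8 macrophage and granulocyte and 11 of 15 enterocyte markers rose. The part of these cell types in the result was not tested.

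In WT intestine more mitosis genes were lower than higher in T3 relative to control libraries. The share that rose was below that of all tested genes. Of 45 genes 8 rose, 23 fell and 14 did not pass, against 30.3% of all tested genes called higher and 30.3% lower, and the median log2 fold change was -0.32. Falls of at least 1.5-fold were found in 8 of the 45 genes, a share near the 14% among all tested genes. All 7 genes of the central spindle and cytokinesis and all 4 spindle motors and microtubule binders fell, as did 5 of 7 chromosome structure genes. Of 10 centromere and kinetochore genes 4 fell and 2 rose, and of 7 entry kinases and cyclins 1 fell, aurka, and 3 rose, ccnb3, nek2 and cdk1. The kinetochore kinesin cenpe had 17.3, 18.01 and 11.4 CPM in TRDKO T3, 8.63, 8.65 and 7.95 CPM in TRDKO control, 3.15, 3.36 and 2.51 CPM in WT T3 and 5.45, 5.61 and 6.34 CPM in WT control libraries, and fell by 0.94 on the log2 scale (SE 0.19, adjusted p = 0.00066, edgeR quasi-likelihood test with Benjamini-Hochberg adjustment). The condensin subunit smc2 had 22.7, 22.3 and 21.1 CPM in TRDKO T3, 13.2, 11.6 and 12.36 CPM in TRDKO control, 3.75, 4.47 and 4.92 CPM in WT T3 and 7.47, 7.48 and 7.17 CPM in WT control libraries, with a log2 fold change of -0.75 ± 0.10, and anln had -0.79 ± 0.13. Against this, ccnb3 rose by 1.24 ± 0.12, cdc20 by 1.03 ± 0.10 and ska3, which couples kinetochores to microtubules, by 0.999 ± 0.10. ska3 had 9.81, 9.29 and 8.50 CPM in TRDKO T3, 5.94, 6.10 and 5.83 CPM in TRDKO control, 6.15, 5.91 and 6.43 CPM in WT T3 and 3.34, 2.65 and 3.19 CPM in WT control libraries. For these 3 risers and the 3 fallers named here the WT T3 and WT control libraries did not overlap. They were picked as the largest changes, so this adds no support. Of all tested genes 36.4% lay wholly above and 36.7% wholly below. The smaller rise of cdk1, 0.26 ± 0.09 (adjusted p = 0.016), no longer passed without WT control replicate 1 or without WT T3 replicate 2 (adjusted p = 0.0717 and 0.0739), and the number of genes that rose was then 4 and 5. Here 20 of 21 heat shock chaperones fell, with a median of -3.56, and 9 of 11 pancreas markers rose. Tested pancreas markers at 0 in WT control passed the filter through other groups, so their rises add nothing to it.

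Under T3 the gap between TRDKO and WT intestine was wider still. Of 45 genes 44 rose, 0 fell and 1, nek2, did not pass (25.1% of all tested genes were called higher and 24.3% lower), with a median log2 fold change of 1.93. At least 1.5-fold rises were found in 40 genes, against 9.90% of all tested genes. The 7 genes of the central spindle and cytokinesis had a median of 2.36, and the 4 spindle motors and microtubule binders one of 2.22. prc1 rose by 2.60 ± 0.08, anln by 2.46 ± 0.11 and ect2 by 2.45 ± 0.11 on the log2 scale. No library of 1 genotype reached the range of the other for these genes. They were picked as the largest rises, so this adds no support. Without TRDKO T3 replicate 3 the counts were 43 higher and 0 lower, with a median of 1.86. The calls over all genes were then 10194 in place of 7646. In this comparison 11 of 11 pancreas markers fell and 8 of 9 hepatocyte markers rose. Some of these hepatocyte markers were at 0 in WT T3 and passed the filter on low counts through other groups. Their calls as higher add nothing to that filter.

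The change from control to T3 libraries differed between TRDKO and WT intestine. The WT control libraries, which stood apart in heat shock chaperones, enter this difference, and their part in it was not tested. The difference, T3 effect in TRDKO minus T3 effect in WT, was above 0 in 35 of 45 genes and below 0 in 3, and 7 did not pass, against 27.2% of all tested genes above 0 and 25.1% below 0. Its median was 0.93. All 7 genes of the central spindle and cytokinesis and all 4 spindle motors and microtubule binders were above 0. The widest was in cenpe at 1.85 ± 0.24 (adjusted p = 1.9e-05, edgeR quasi-likelihood test with Benjamini-Hochberg adjustment), followed by anln at 1.79 ± 0.16 and kif2c at 1.67 ± 0.21, all 3 of which rose with T3 in TRDKO and fell in WT. The genes below 0 were ccnb3 (-0.76 ± 0.15), nek2 (-0.72 ± 0.13) and ska3 (-0.37 ± 0.14). ska3 had adjusted p = 0.0394 and lost the call in 9 of the 12 fits that left out 1 library, with DESeq2 (0.125) and with no filter (0.0667). Without TRDKO T3 replicate 3, 36 genes were above 0 and 3 below 0, with a median of 0.93. The calls over all genes were then 10560 in place of 8108. Here 16 of 21 heat shock chaperones were above 0, and 10 of 11 pancreas markers below 0.

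**Figure D3:**
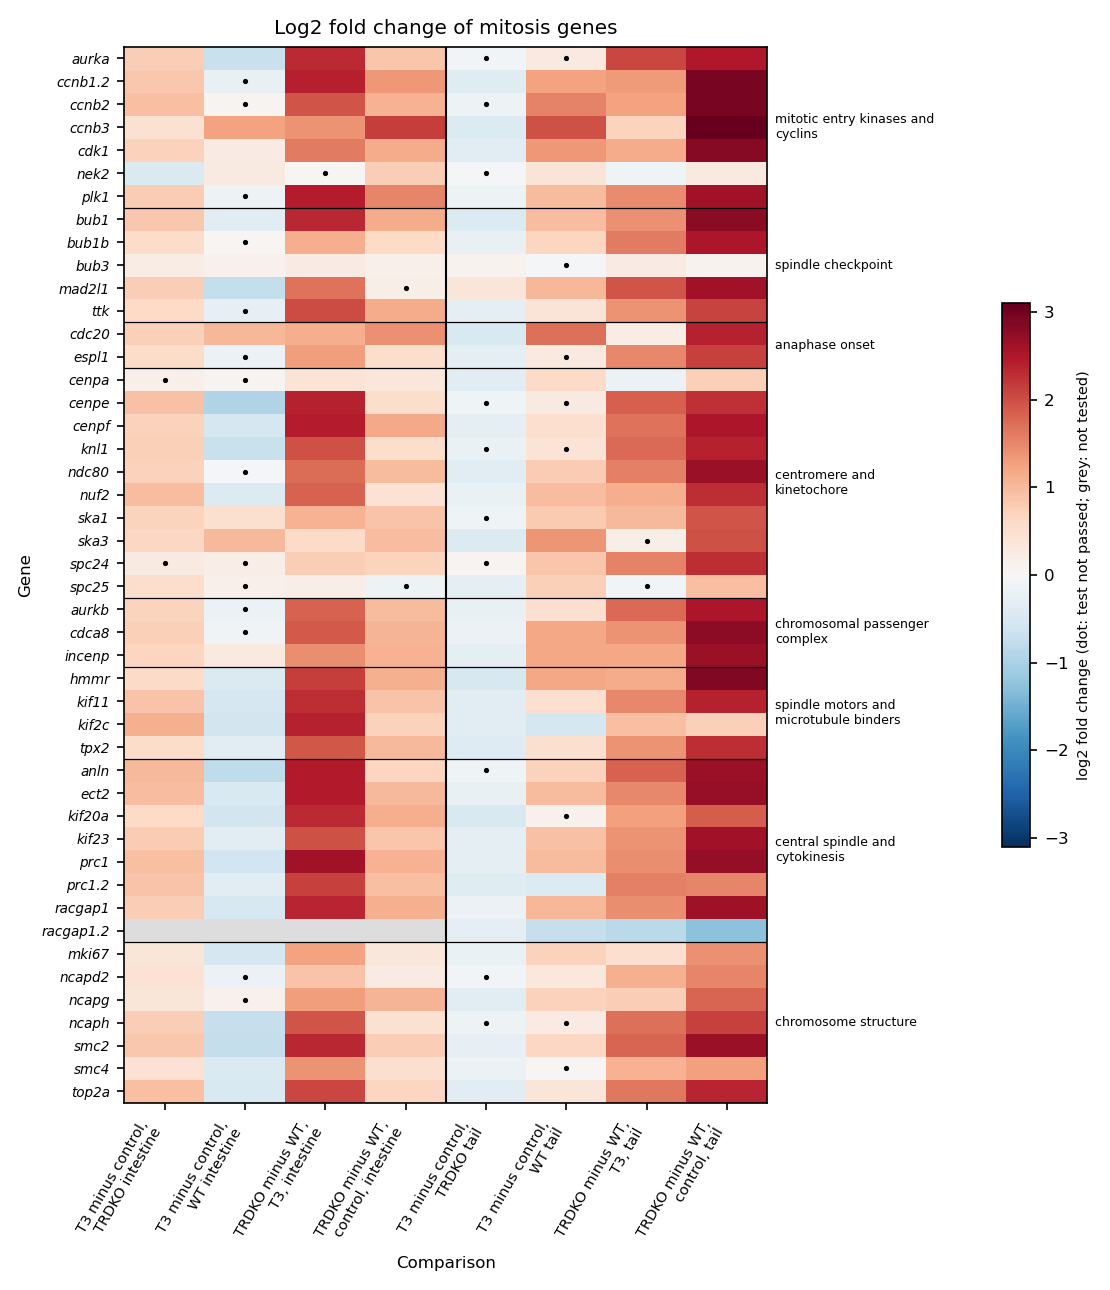
Log2 fold change (first group minus second as named on the horizontal axis) of the mitosis genes that were tested, in rows by role, for 4 comparisons in intestine (left) and 4 in tail (right), with a dot where the test did not pass and grey where a gene was not tested. The TRDKO minus WT columns are red for most genes in both organs, and the T3 columns are red in TRDKO intestine and WT tail and mostly blue in WT intestine and TRDKO tail.

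In tail the same genes were lowest in WT control and highest in TRDKO control. cdk1 had 42.3, 41.3 and 40.0 CPM in TRDKO T3, 49.6, 54.5 and 51.2 CPM in TRDKO control, 19.3, 18.3 and 18.2 CPM in WT T3 and 7.504, 7.22 and 7.16 CPM in WT control libraries. bub1b had 8.89, 8.71 and 7.53 CPM in TRDKO T3, 9.04, 10.5 and 9.89 CPM in TRDKO control, 2.64, 2.86 and 2.71 CPM in WT T3 and 1.52, 2.03 and 1.61 CPM in WT control libraries. cdc20 had 14.1, 14.5 and 13.5 CPM in TRDKO T3, 18.7, 18.9 and 20.6 CPM in TRDKO control, 12.04, 12.5 and 11.6 CPM in WT T3 and 3.53, 3.71 and 3.83 CPM in WT control libraries. For cdk1 and cdc20 all 4 groups were apart, in the order TRDKO control, TRDKO T3, WT T3, WT control from the top. bub1b followed the same order. ndc80 had 10.9, 10.5 and 9.39 CPM in TRDKO T3, 12.7, 13.2 and 12.9 CPM in TRDKO control, 3.46, 3.68 and 3.24 CPM in WT T3 and 2.01, 1.88 and 2.16 CPM in WT control libraries. All of its TRDKO libraries stood well clear of its WT libraries.

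aurkb had 23.3, 22.1 and 23.4 CPM in TRDKO T3, 26.9, 26.5 and 27.7 CPM in TRDKO control, 7.42, 6.97 and 6.11 CPM in WT T3 and 4.89, 5.44 and 3.83 CPM in WT control libraries, and kif11 had 26.4, 24.4 and 25.9 CPM in TRDKO T3, 31.7, 33.3 and 32.1 CPM in TRDKO control, 9.62, 8.73 and 8.71 CPM in WT T3 and 6.63, 6.15 and 5.94 CPM in WT control libraries. In both, the 4 groups did not overlap. prc1 had 30.7, 31.7 and 31.8 CPM in TRDKO T3, 37.7, 38.1 and 38.6 CPM in TRDKO control, 11.8, 10.2 and 12.6 CPM in WT T3 and 5.17, 6.51 and 5.66 CPM in WT control libraries. top2a had 37.0, 37.8 and 35.9 CPM in TRDKO T3, 48.03, 46.8 and 43.9 CPM in TRDKO control, 11.4, 12.1 and 11.8 CPM in WT T3 and 7.395, 9.61 and 10.1 CPM in WT control libraries. In all 8 of these genes the lowest TRDKO library was above the highest WT library, and TRDKO control was above TRDKO T3. Separation was common among all genes in tail too. Between TRDKO and WT control 45 of 46 mitosis genes lay wholly above and 1 wholly below, against 37.3% and 37.2% of all tested genes. Under T3 it was 41 and 3, against 35.4% and 32.5%. For T3 against control it was 36 and 3 in WT, against 36.4% and 34.4%. In TRDKO it was 2 and 34, against 28.8% and 28.1%.

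Without hormone the mitosis genes were several-fold higher in TRDKO than in WT tail. Of 46 genes 45 rose, 1 fell and 0 did not pass (adjusted p under 0.05, edgeR quasi-likelihood test with Benjamini-Hochberg adjustment), against 36.4% of all tested genes called higher and 36.6% lower. The median log2 fold change was 2.38, and 43 genes rose at least 1.5-fold, as 16.7% of all tested genes did. ccnb3 had 23.2, 22.4 and 21.9 CPM in TRDKO T3, 29.5, 31.0 and 30.2 CPM in TRDKO control, 13.5, 13.9 and 14.2 CPM in WT T3 and 3.21, 4.22 and 3.16 CPM in WT control libraries, and was higher in TRDKO control by 3.09 ± 0.08 (adjusted p = 1.9e-51). The other B-type cyclins followed: ccnb2, with 5.03, 4.66 and 4.45 CPM in TRDKO control and 0.544, 0.559 and 0.722 CPM in WT control libraries, rose by 2.95 ± 0.20, and ccnb1.2, with 28.2, 28.4 and 26.1 CPM and 3.81, 3.36 and 3.61 CPM in the same groups, by 2.94 ± 0.08. The 3 tested genes of the passenger complex, incenp, cdca8 and aurkb, rose by a median of 2.68 and the 10 centromere and kinetochore genes by a median of 2.27. Chromosome structure genes had a lower median of 1.80, and bub3 rose by only 0.10 ± 0.04 and nek2 by 0.29 ± 0.03. The exception was racgap1.2, a second copy of a central spindle gene, with 4.102, 4.09 and 3.83 CPM in TRDKO T3, 5.11, 4.71 and 4.85 CPM in TRDKO control, 7.91, 6.26 and 7.33 CPM in WT T3 and 10.7, 11.1 and 13.9 CPM in WT control libraries. It fell by 1.27 on the log2 scale (SE 0.09) while racgap1 rose by 2.64 ± 0.10. In this comparison 19 of 22 heat shock chaperones fell, with a median of -0.85.

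Gut and other markers moved with these tail groups as well. The 15 enterocyte markers summed to 56.8 to 57.2 CPM in TRDKO T3, 267 to 270.2 CPM in TRDKO control, 26.5 to 28.1 CPM in WT T3 and 16.4 to 18.3 CPM in WT control tail, with fabp1 and cdx1 at 0 in WT control. Of 14 tested, 13 rose in TRDKO relative to WT control tail and 13 fell with T3 in TRDKO tail. Tested markers at 0 in WT control tail passed the filter on low counts through other groups, so their rise there adds nothing to it. Exocrine pancreas markers summed to 9.87 to 10.4 CPM in TRDKO T3, 95.3 to 100.4 CPM in TRDKO control, 2.18 to 2.36 CPM in WT T3 and 1.83 to 2.22 CPM in WT control, with 7 of 13 at 0 in each WT group. Hepatocyte markers summed to 53.97 to 57.1 CPM in TRDKO T3, 101 to 104 CPM in TRDKO control, 27.8 to 30.6 CPM in WT T3 and 36.9 to 40.1 CPM in WT control, with alb, fgb, fga and ambp at 0 in both WT groups. Epidermis markers rose in 5 of 6 and skeletal muscle markers fell in 7 of 11 cases in TRDKO relative to WT control tail. Of all tested genes 36.4% were called higher and 36.6% lower in that comparison. Epidermis sums were 1932 to 1972 CPM in TRDKO T3, 1982 to 2013 CPM in TRDKO control, 1971 to 2048 CPM in WT T3 and 1503 to 1511 CPM in WT control. Erythrocyte markers had the same T3 directions as the mitosis genes: 11 of 11 fell with T3 in TRDKO tail and 10 of 11 rose in WT tail, and 9 of 11 fell in TRDKO relative to WT tail under T3. Their sums were 1569.5 to 1618 CPM in TRDKO T3, 2400.2 to 2555 CPM in TRDKO control, 3247 to 3384 CPM in WT T3 and 2127 to 2176 CPM in WT control. Of the notochord and cartilage markers 5 of 6 fell with T3 in TRDKO and 4 of 6 rose in WT tail, with sums of 1994 to 2064 CPM in TRDKO T3, 2781 to 2914 CPM in TRDKO control, 3374 to 3597 CPM in WT T3 and 2853 to 2902 CPM in WT control. Macrophage and granulocyte markers rose in 7 of 7 cases in TRDKO relative to WT tail under T3, with lyz at 0 in both WT groups and sums of 159.9 to 167 CPM in TRDKO T3, 125 to 127 CPM in TRDKO control, 89.3 to 97.9 CPM in WT T3 and 104 to 109 CPM in WT control. With T3 26.7% of all tested genes were called higher and 26.2% lower in TRDKO tail, and 35.4% and 33.5% in WT tail. In TRDKO relative to WT tail under T3 the shares were 34.1% and 31.4%. The part of these tissues in the mitosis results was not tested.

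In TRDKO tail most mitosis genes were lower by a small amount in T3 than in control libraries. Of 46 genes 2 rose, 34 fell and 10 did not pass, against 26.7% of all tested genes called higher and 26.2% lower, and the median log2 fold change was -0.28. No gene of the set fell by as much as 1.5-fold, while 6.04% of all tested genes fell by that much. All 3 passenger complex genes, all 4 spindle motors and microtubule binders and 7 of 8 genes of the central spindle and cytokinesis fell. hmmr, a spindle protein that binds microtubules, had 20.5, 21.4 and 21.3 CPM in TRDKO T3, 30.4, 28.4 and 30.4 CPM in TRDKO control, 10.6, 9.23 and 8.601 CPM in WT T3 and 4.02, 4.58 and 3.61 CPM in WT control libraries. The cytokinesis kinesin kif20a had 17.4, 18.99 and 17.5 CPM in TRDKO T3, 24.6, 25.5 and 24.3 CPM in TRDKO control, 7.59, 7.30 and 7.54 CPM in WT T3 and 7.67, 5.695 and 7.11 CPM in WT control libraries. In both genes the TRDKO T3 libraries lay below all TRDKO control libraries. They were picked as the largest falls, so this adds no support. hmmr fell by 0.50 (adjusted p = 3.5e-15), kif20a by 0.47 (adjusted p = 2.3e-12) and cdc20 by 0.46 (adjusted p = 1.5e-10, all by the edgeR quasi-likelihood test with Benjamini-Hochberg adjustment). The 2 genes that rose belong to the spindle checkpoint: mad2l1, which holds cdc20 inactive, with 8.43, 8.56 and 7.16 CPM in TRDKO T3, 5.39, 6.98 and 6.47 CPM in TRDKO control, 2.31, 1.92 and 2.02 CPM in WT T3 and 1.09, 1.12 and 0.833 CPM in WT control libraries, rose by 0.37 ± 0.09. bub3 had 49.5, 50.1 and 47.8 CPM in TRDKO T3, 45.3, 46.2 and 45.04 CPM in TRDKO control, 39.8, 42.6 and 41.9 CPM in WT T3 and 43.4, 43.0 and 40.7 CPM in WT control libraries and rose by 0.11 ± 0.04. In both, every TRDKO T3 library was above every TRDKO control library, which adds no support beyond their calls. The bub3 call (adjusted p = 0.00747) was lost with DESeq2, with upper-quartile scaling and in the fit of all 24 libraries, where adjusted p was 0.0966, 0.113 and 0.0874. The fall of bub1b, -0.22 ± 0.08, was lost without TRDKO control replicate 2 (adjusted p = 0.113) or TRDKO T3 replicate 3 (0.145), and with DESeq2 or all 24 libraries in 1 fit (0.0991 and 0.0568). With upper-quartile scaling 39.8% of all calls in this comparison were higher, against 50.5% here. Of the mitosis genes 1 rose and 40 fell with that scaling, and 1 rose and 26 fell with DESeq2. Enterocyte and pancreas sums were also lower in TRDKO T3 than in TRDKO control tail, as given above, and their part was not tested.

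In WT tail most mitosis genes were higher in T3 than in control libraries. Of 46 genes 35 rose, 3 fell and 8 did not pass (35.4% of all tested genes were called higher and 33.5% lower), with a median log2 fold change of 0.71. Rises of at least 1.5-fold were found in 27 genes, against 12.9% of all tested genes. ccnb3 rose by 1.96 ± 0.10 (adjusted p = 1.2e-30, edgeR quasi-likelihood test with Benjamini-Hochberg adjustment), cdc20 by 1.71 ± 0.10 and ccnb2, with 1.43, 2.14 and 1.70 CPM in WT T3 and 0.544, 0.559 and 0.722 CPM in WT control libraries, by 1.53 ± 0.26. In each of them every WT T3 library was above every WT control library. They were picked as the largest rises, so this adds no support. Of 7 entry kinases and cyclins 6 rose and 1, aurka, did not pass, and of 10 centromere and kinetochore genes 8 rose, with cenpe and knl1 not passing. All 3 passenger complex genes rose. The 3 genes that fell were racgap1.2 (-0.72 ± 0.09), kif2c (-0.54 ± 0.12) and prc1.2 (-0.43 ± 0.14). kif2c had 8.32, 8.17 and 8.603 CPM in TRDKO T3, 10.4, 10.9 and 10.6 CPM in TRDKO control, 4.18, 4.06 and 4.94 CPM in WT T3 and 5.71, 6.25 and 7.22 CPM in WT control libraries, and prc1.2 had 9.57, 10.7 and 9.47 CPM in TRDKO T3, 13.01, 13.3 and 12.3 CPM in TRDKO control, 3.24, 3.51 and 3.24 CPM in WT T3 and 3.75, 4.42 and 5.27 CPM in WT control libraries. Both dotted copies went the other way from prc1, which rose by 0.99 ± 0.10, and racgap1, which rose by 1.02 ± 0.13. The fall of prc1.2 (adjusted p = 0.00458) did not pass without WT control replicate 3 (adjusted p = 0.0862). In the same comparison 18 of 22 heat shock chaperones fell.

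Under T3 the TRDKO tail still stood above the WT tail. Of 46 genes 41 rose, 3 fell and 2, ska3 and spc25, did not pass (34.1% of all tested genes were called higher and 31.4% lower), with a median log2 fold change of 1.40 and 38 rises of at least 1.5-fold, against 11.8% of all tested genes. The 8 genes of the central spindle and cytokinesis had a median of 1.44, with 7 higher and 1 lower. The spindle kinase aurka had 5.77, 5.54 and 5.52 CPM in TRDKO T3, 5.998, 5.89 and 6.11 CPM in TRDKO control, 1.43, 1.48 and 1.06 CPM in WT T3 and 1.196, 1.47 and 0.500 CPM in WT control libraries, and rose by 2.08 ± 0.16. mad2l1 rose by 1.95 ± 0.13 and cenpe by 1.85 ± 0.09, with cenpe at 16.8, 17.1 and 18.3 CPM in TRDKO T3 and 4.56, 5.71 and 4.19 CPM in WT T3 libraries. The genotypes did not overlap in these genes, which were picked as the largest rises, so this adds no support. racgap1.2 fell by 0.84, cenpa by 0.18 and nek2 by 0.14 on the log2 scale. cenpa had 19.1, 20.9 and 19.8 CPM in TRDKO T3 and 21.5, 22.6 and 23.5 CPM in WT T3 libraries, and nek2 had 110.4, 103 and 106 CPM and 116, 117 and 118 CPM in the same groups.

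In tail the change from control to T3 in TRDKO lay below that in WT for most genes. The WT control libraries enter this difference too, and their part in it was not tested. The difference, T3 effect in TRDKO minus T3 effect in WT, was below 0 in 41 of 46 genes and above 0 in 2, with 3 not passing, against 32.2% of all tested genes above 0 and 33.4% below 0. Its median was -0.89. ccnb3 had the lowest value, -2.39 ± 0.11 (adjusted p = 2.9e-33, edgeR quasi-likelihood test with Benjamini-Hochberg adjustment), then cdc20 at -2.17 ± 0.12 and ska3 at -1.78 ± 0.14. ska3 had 8.58, 9.74 and 10.003 CPM in TRDKO T3, 13.4, 12.6 and 11.9 CPM in TRDKO control, 8.24, 7.74 and 8.81 CPM in WT T3 and 3.26, 2.95 and 3.497 CPM in WT control libraries, so its T3 groups overlapped while its controls did not. All 10 centromere and kinetochore genes and all 7 chromosome structure genes were below 0. The genes above 0 were racgap1.2 at 0.43 ± 0.15 and bub3 at 0.14 ± 0.06. The racgap1.2 call (adjusted p = 0.00734) was lost with DESeq2 (0.0562) and without WT control replicate 3 (0.0675). The bub3 call (adjusted p = 0.0218) was lost under DESeq2, upper-quartile scaling, the fit of all 24 libraries and 4 of 12 omissions of 1 library, with adjusted p from 0.0543 to 0.55. The median of all tested genes was -0.03, and -0.14 with upper-quartile scaling. Here 17 of 22 heat shock chaperones were above 0.

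**Figure D4:**
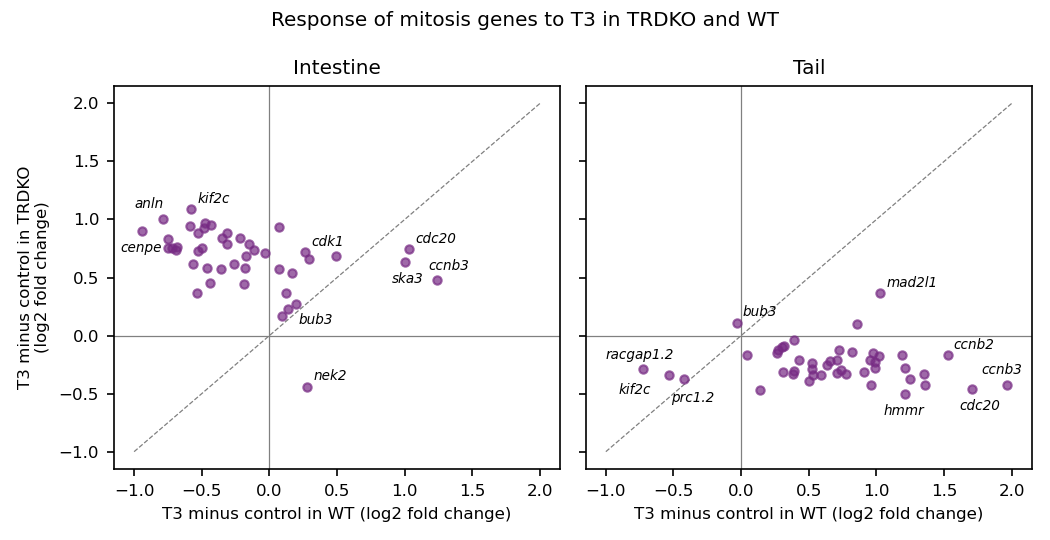
Log2 fold change of T3 minus control in TRDKO (vertical axis) against that in WT (horizontal axis) for each tested mitosis gene in intestine (left, 45 genes) and tail (right, 46 genes), with a dashed line where both are equal. Most intestine points lie above the line and most tail points below it, and ccnb3 has the largest T3 effect in WT in both organs (1.24 and 1.96).

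Set against each other in 1 fit over both organs, tail and intestine held unequal levels of mitosis transcripts, and the order depended on the genotype. In WT control tadpoles 34 of 46 genes were lower in tail than in intestine, 4 were higher and 8 did not pass, with a median log2 fold change of -0.77, against 45% of all tested genes called higher and 39.4% lower. mad2l1 averaged 0.944 CPM in tail and 3.51 CPM in intestine on the scale of this fit, a log2 fold change of -1.93 ± 0.22 (adjusted p = 4.7e-09, edgeR quasi-likelihood test with Benjamini-Hochberg adjustment). ccnb2 differed by -1.86 ± 0.22 and knl1, the kinetochore platform for the checkpoint, by -1.85 ± 0.21. The 4 genes higher in WT tail were racgap1.2, nek2, kif2c and mki67, the coat protein of mitotic chromosomes. nek2 averaged 80.9 CPM in tail and 7.35 CPM in intestine (3.45 ± 0.06), and kif2c 5.77 CPM and 3.18 CPM (0.87 ± 0.13). racgap1.2 had 196 to 250 counts per tail WT control library and 0 to 1 counts per intestine WT control library. It passed the filter on low counts through the tail libraries only, so its call as higher in tail adds nothing to that filter. Of 22 heat shock chaperones 16 were lower in tail.

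In TRDKO control tadpoles the order was turned round: 33 of 46 genes were higher in tail than in intestine, 2 were lower and 11 did not pass, with a median of 0.47, against 43.6% of all tested genes called higher and 41.6% lower. nek2 averaged 98.8 CPM in tail and 12.9 CPM in intestine (2.94 ± 0.05), and mki67 69.7 CPM and 23.9 CPM (1.54 ± 0.06). All 7 chromosome structure genes and all 4 spindle motors and microtubule binders were higher in tail. The 2 lower genes, cenpa (-0.17 ± 0.06) and bub3 (-0.17 ± 0.05), no longer passed under upper-quartile scaling, and cenpa not under DESeq2, so the count of lower genes was then 0 and 1. Organ comparisons span tissues of different cell make-up, and scaling moved their medians: the median of all tested genes was 0.08 in WT and 0.02 in TRDKO control, and 0.18 and 0.16 with upper-quartile scaling. The fit also treats intestine and tail libraries as independent, and whether both came from the same tadpoles is not given. racgap1.2 had 108 to 126 counts per tail TRDKO control library and 2 to 5 counts per intestine TRDKO control library. As in WT, its place among the genes higher in tail follows from the filter on low counts.

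The T3 effect differed between the organs in both genotypes and in opposite senses. In WT the difference, T3 effect in tail minus T3 effect in intestine, was above 0 in 37 of 46 genes and below 0 in 1, with 8 not passing and a median of 0.83 (17.8% of all tested genes were above 0 and 21.7% below 0). It was widest in mad2l1 (1.72 ± 0.31), hmmr (1.61 ± 0.16) and prc1 (1.51 ± 0.14), and the gene below 0 was bub3 (-0.23 ± 0.07), which did not pass with DESeq2, upper-quartile scaling or no filter. Of 22 heat shock chaperones 13 were above 0 in WT. In TRDKO it was below 0 in 41 of 46 genes and above 0 in 1, nek2, with 4 not passing and a median of -0.95 (17.4% of all tested genes were above 0 and 14.2% below 0). The lowest values were in kif2c (-1.43 ± 0.13, adjusted p = 1.5e-09, edgeR quasi-likelihood test with Benjamini-Hochberg adjustment), bub1 (-1.27 ± 0.11) and top2a (-1.26 ± 0.11). Without intestine TRDKO T3 replicate 3, 41 genes were below 0 and 2 above 0, with a median of -0.95. The calls over all genes were 7529 without it and 5653 with it. The share of calls over all genes above 0 was 55.0% here, 41.0% with DESeq2 and 44.0% with no filter. bub1, the kinase that recruits the checkpoint to kinetochores, had 23.1, 25.2 and 23.5 CPM in TRDKO T3 and 12.97, 15.5 and 11.9 CPM in TRDKO control intestine. In tail, which was scaled separately, it had 15.2, 15.7 and 15.9 CPM in TRDKO T3 and 19.8, 22.7 and 20.4 CPM in TRDKO control libraries.

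The comparisons above share libraries. The T3 effect in TRDKO and the TRDKO effect without T3 share the TRDKO controls, and the TRDKO effect without T3 and the T3 effect in WT share the WT controls, so they are set side by side and not counted as separate evidence of 1 pattern. Among the comparisons within an organ, TRDKO against WT under T3 and the T3 effect within TRDKO use no WT control library, and in intestine these had 44 and 42 of 45 genes higher, while in tail they had 41 and 2 of 46 higher. These comparisons in turn share the TRDKO T3 libraries, which in intestine include replicate 3 that stood apart, so they are not independent of each other. Without it they had 43 and 42 of 45 genes higher, and the calls over all genes were 10194 and 9004 in place of 7646 and 6343.

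The rest of the division machinery was followed in a list of 104 other mitosis genes, such as ccna2, foxm1, the remaining centromere genes, kinesins and subunits of the anaphase-promoting complex. In TRDKO relative to WT control intestine 59 of 104 rose and 9 fell, with a median log2 fold change of 0.42. In tail 80 of 104 rose and 10 fell, with a median log2 fold change of 1.03. The shares of all tested genes called higher and lower were 29.1% and 28.7% in intestine and 36.4% and 36.6% in tail. Under T3 73 of 104 rose and 4 fell in intestine, with a median log2 fold change of 0.91. In tail 83 of 104 rose and 8 fell, with a median log2 fold change of 0.67. The shares of all genes were 25.1% higher and 24.3% lower in intestine, and 34.1% and 31.4% in tail. With T3 in TRDKO, 64 of 104 rose and 3 fell in intestine, with a median log2 fold change of 0.49. In tail 22 of 104 rose and 30 fell, with a median log2 fold change of -0.04. The shares of all genes were 20.6% higher and 20.3% lower in intestine, and 26.7% and 26.2% in tail. The tail counts thus lie near the shares of all genes, but they turned on the setting. With upper-quartile scaling 13 rose and 41 fell, and with DESeq2 13 rose and 22 fell. With T3 in WT, 22 of 104 rose and 35 fell in intestine, with a median log2 fold change of -0.13. In tail 62 of 104 rose and 13 fell, with a median log2 fold change of 0.38. The shares of all genes were 30.3% each way in intestine, and 35.4% higher and 33.5% lower in tail. The falls in intestine thus lie near the share of all genes. The microtubule-binding gene gtse1 was among the largest changes in several of these comparisons. It rose by 2.82 ± 0.09 with T3 in WT tail (adjusted p = 3e-45, edgeR quasi-likelihood test with Benjamini-Hochberg adjustment) and by 1.54 ± 0.05 in TRDKO relative to WT control intestine. The mitotic kinase gene mastl fell by 1.37 with T3 in WT intestine, and melk rose by 1.05 ± 0.10 with T3 in TRDKO intestine. wee1, an inhibitor of cdk1, fell by 0.99 in TRDKO relative to WT control tail.

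DNA replication genes, which act in the S phase before mitosis, rose in TRDKO relative to WT more often than they fell, both without and with T3. In TRDKO relative to WT control intestine 24 of 51 rose and 3 fell, with a median log2 fold change of 0.27, against 29.1% of all tested genes called higher, and in tail 46 of 51 rose and 1 fell, with a median log2 fold change of 0.90, against 36.4%. With T3 in TRDKO intestine 8 of 51 rose and 2 fell, with a median log2 fold change of 0.06, where mitosis genes had a median of 0.73. Of all tested genes 20.6% were called higher there and 20.3% lower, so neither count exceeds the share of all genes. With T3 in TRDKO tail 23 of 51 rose and 8 fell, with a median log2 fold change of 0.14, while the median of the mitosis genes was -0.28. The shares of all tested genes were 26.7% higher and 26.2% lower. These counts of replication genes turned on the setting. With DESeq2 12 rose and 7 fell (median 0.13), and with upper-quartile scaling 15 rose and 10 fell (median 0.10). Under T3 31 of 51 rose and 2 fell in TRDKO relative to WT intestine, with a median log2 fold change of 0.34. In tail 37 of 51 rose and 4 fell, with a median log2 fold change of 0.53. The shares of all tested genes were 25.1% higher and 24.3% lower in intestine, and 34.1% and 31.4% in tail. In WT, T3 left a median of -0.02 in intestine (14 of 51 rose and 12 fell), which was 0.05 with upper-quartile scaling. These counts lie near or below the 30.3% of all tested genes called each way. In WT tail the median was 0.33 (36 rose and 3 fell), against 35.4% of all tested genes higher and 33.5% lower. The helicase component cdc45 rose by 1.45 ± 0.17 in TRDKO relative to WT intestine under T3 (adjusted p = 8.7e-06, edgeR quasi-likelihood test with Benjamini-Hochberg adjustment), and the nucleotide enzyme tyms by 3.33 ± 0.16 in TRDKO relative to WT control tail. mcm5 fell by 1.57 with T3 in WT intestine. The difference between the lists themselves was not tested.

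**Figure D5:**
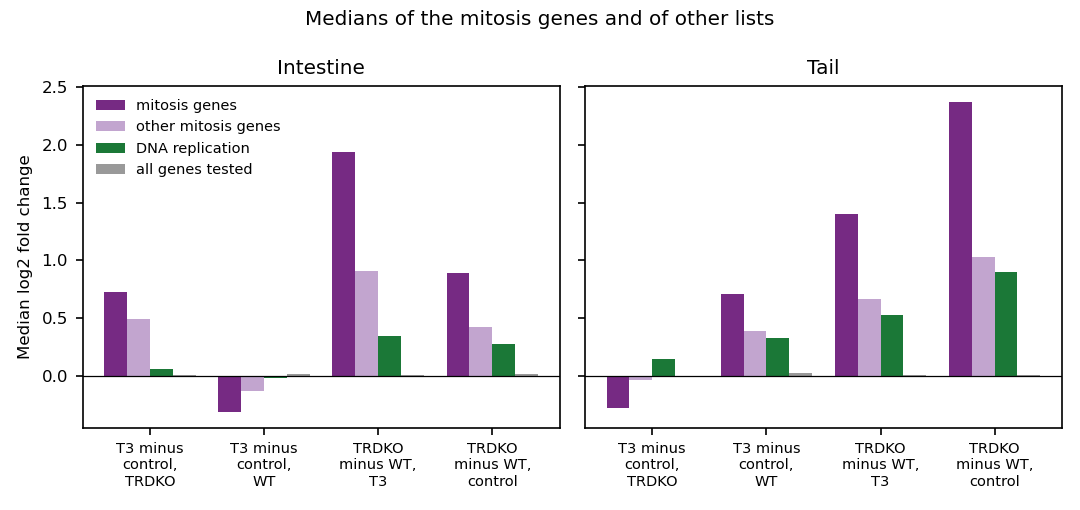
Median log2 fold change (first group minus second as named on the horizontal axis) of the mitosis genes, 104 other mitosis genes, the DNA replication genes and all tested genes, for 4 comparisons in intestine (left) and tail (right). The mitosis genes have the largest bars of the 4 lists in each comparison, up to 2.38 for TRDKO minus WT control tail, and the bars of all tested genes stay near 0.

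Genes of the G1 phase and inhibitors of the cycle moved in both directions. Of 33 tested, 5 rose and 13 fell in TRDKO relative to WT control intestine and 14 rose and 15 fell in tail. In tail these shares, 42.4% and 45.5%, lie near those of all tested genes (36.4% higher and 36.6% lower). In intestine the shares were 15.2% and 39.4%, against 29.1% and 28.7%. The stress-linked growth arrest gene gadd45g fell by 2.15 in intestine and 1.70 in tail in that comparison, and myc by 1.44 and 0.99. Of the 33, 5 rose and 20 fell with T3 in WT intestine (median log2 fold change -0.30), against 30.3% of all genes each way. In TRDKO intestine 13 rose and 5 fell with T3 (20.6% and 20.3% of all genes). In tail 15 rose and 6 fell in TRDKO (26.7% and 26.2%), and 9 rose and 11 fell in WT (35.4% and 33.5%). With T3, the cdk inhibitor cdkn1a rose by 1.66 ± 0.04 in TRDKO and 1.38 ± 0.04 in WT intestine, where most of the list fell. In tail cdkn2b rose by 2.04 ± 0.16 in TRDKO and 4.83 ± 0.18 in WT (all with adjusted p under 0.05 by the edgeR quasi-likelihood test with Benjamini-Hochberg adjustment). The repressor e2f7 rose by 2.56 ± 0.20 in TRDKO relative to WT control tail and by 2.10 ± 0.19 under T3. Over the list, the T3 effect in TRDKO intestine minus that in WT was above 0 in 15 genes and below 0 in 0. Of all tested genes 27.2% were above 0 and 25.1% below 0. For tail this difference was above 0 in 13 genes and below 0 in 7, against 32.2% and 33.4% of all tested genes.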

How the data were processed

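RNA from intestine and tail of stage 54 tadpoles was sequenced from stranded total RNA libraries, 3 per group. The authors deposited raw counts of fragments per gene, per the file headers, from featureCounts (Subread 2.0.1, reverse-stranded, read pairs with both ends mapped, primary alignments, duplicates dropped) on the XENTR_10.0 annotation grouped by gene name. The submitters' processing notes name cutadapt 3.2 and STAR 2.7.7a. All 24 sample columns were used and 0 were left unmapped. Library totals are given with the results, and counting error limits genes with few counts.

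Samples were grouped by tissue, genotype and treatment labels. Genes passing the expression filter of edgeR 4.0.16 (R 4.3.3) were fitted per organ, and over both organs for organ comparisons, with TMM scaling and a robust quasi-likelihood test, with Benjamini-Hochberg adjustment over all genes tested. A call needs an adjusted p under 0.05, and a second rule also asks for a 1.5-fold change. Fold changes are fitted log2 differences with standard errors, and the procedure was tested on simulated data. The simulation used independent libraries and the same spread for both organs, wider than the spread found in tail. It covered the first comparison of each fit and did not include summed libraries, so it does not check the small p-values in tail. Libraries of a group whose counts agreed within sampling noise (chi-square over genes with at least 20 counts in the pair) were summed. Alternatives were DESeq2 1.42.0, limma 3.58.1 (voom), upper-quartile scaling, no filter, no summing, a replicate block, all 24 libraries in 1 fit, and each library left out. The members and gene lists were chosen with earlier results of these data known. The genes named are 1 per mitotic role, the 3 largest rises and falls per comparison among members that passed, and up to 4 from each other list, and any others, such as birc5l, were picked after their values were seen. No sequences are printed.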

Additional observations from a re-analysis of the deposited data

Results flagged for a closer look

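The results listed here were picked out because the change from control to T3 differed between the genotypes or between the organs. The test was of that difference (adjusted p under 0.05, edgeR quasi-likelihood test with Benjamini-Hochberg adjustment, 3 libraries per group, 2 samples in tail WT control). In intestine 38 of 45 mitosis genes differed between the T3 effect in TRDKO and that in WT. The same test placed 27.2% of all tested genes above 0 and 25.1% below 0. On the log2 scale the difference was 1.85 for cenpe, 1.79 for anln and 1.67 for kif2c, and -0.76 for ccnb3, -0.72 for nek2 and -0.37 for ska3. Among the genes followed in every library it was 0.46 for cdk1, 0.74 for ndc80, 0.86 for aurkb, 1.41 for kif11, 1.53 for prc1 and 1.41 for top2a.

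In tail 43 of 46 genes differed between the genotypes, most with the other sign. Here 32.2% of all tested genes were above 0 and 33.4% below 0. The difference was 0.43 for racgap1.2 and 0.14 for bub3, and -2.39 for ccnb3, -2.17 for cdc20 and -1.78 for ska3. It was -1.68 for cdk1, -0.88 for bub1b, -1.11 for ndc80, -0.76 for aurkb, -0.87 for kif11, -1.27 for prc1 and -0.71 for top2a.

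Between the organs, 38 of 46 genes differed in WT between the T3 effect in tail and that in intestine. Of all tested genes 17.8% were above 0 and 21.7% below 0. The difference was 1.72 for mad2l1, 1.61 for hmmr, 1.51 for prc1 and -0.23 for bub3, and 1.03 for cdk1, 0.62 for cdc20, 0.75 for ndc80, 0.63 for aurkb, 1.01 for kif11 and 0.81 for top2a. In TRDKO 42 of 46 genes differed, against 17.4% of all tested genes above 0 and 14.2% below 0. The difference was 0.40 for nek2, -1.43 for kif2c, -1.27 for bub1 and -1.26 for top2a, and -1.05 for cdk1, -0.79 for bub1b, -1.21 for cdc20, -1.04 for ndc80, -0.93 for aurkb, -1.23 for kif11 and -1.23 for prc1.

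The WT control libraries, which stood apart in heat shock chaperones, enter the differences between genotypes and the organ difference in WT. The organ difference in TRDKO uses none of them, and intestine TRDKO T3 replicate 3, which stood apart from its replicates, enters it.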

How the results depend on the processing

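The count of mitosis genes that passed stayed within 1.5 times its value in all 14 comparisons under every alternative run, and the median of the mitosis genes changed sign under none. That margin is wide: with T3 in TRDKO tail 26 genes fell with DESeq2 and 40 with upper-quartile scaling, in place of 34. Single genes were followed across the alternatives only in comparisons where they are named, and among these the sign changed for 3 genes that had not passed (all values log2 fold changes). ndc80 with T3 in WT intestine was -0.03, but 0.034 with upper-quartile scaling, 0.015 with all 24 libraries in 1 fit and -0.076 to 0.049 with 1 library left out. bub1b with T3 in WT intestine was 0.07, and -0.056 to 0.20 with 1 library left out. cdc20 in tail relative to intestine of TRDKO control was -0.03, but 0.030 with DESeq2 and 0.11 with upper-quartile scaling. The cause of these changes was not tested.

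Some calls of named genes turned on the setting. The difference in T3 effect between genotypes in intestine did not pass for cdc20 or bub1b, but passed for cdc20 with upper-quartile scaling, with all 24 libraries in 1 fit and without WT control replicate 1 or TRDKO T3 replicate 3 (adjusted p from 0.0014 to 0.0448, edgeR quasi-likelihood test), and for bub1b without replicate 1 or 3 of TRDKO T3 or replicate 3 of either WT group (adjusted p from 0.0375 to 0.0483), and aurkb passed with T3 in WT intestine without WT control replicate 3 (-0.28). Within an organ, samples with the same replicate number did not deviate together (r from -0.04 to 0.03 in intestine and -0.02 to 0.04 in tail). The numbers are thus not taken as pairs there. Whether intestine and tail libraries came from the same tadpoles is not given and was not checked. The organ comparisons treat them as independent, and the replicate block does not model such pairs. With the replicate number as a block, the count of mitosis genes that passed was 30 in place of 31 with T3 in WT intestine, 37 in place of 38 for the difference between genotypes, and the same elsewhere in intestine. In tail and across organs, where the block was fitted with no libraries summed, it was 37 against 36 unsummed without the block with T3 in TRDKO tail and 44 against 45 for TRDKO against WT under T3, and the same in the other comparisons, and ska3 in intestine lost its difference in T3 effect (adjusted p = 0.0514, edgeR quasi-likelihood test). Genes with few counts limit precision: ccnb1 and birc5 could not be tested at this depth. Promoter windows and motifs were planned but not run.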

Other observations

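Among the other mitosis genes, some departed from the shared pattern, and they were picked after their values were seen. gtse1, a microtubule-binding gene of the cell cycle, averaged 13.8 ± 0.534 CPM in TRDKO T3, 22.1 ± 1.42 CPM in TRDKO control, 25.3 ± 1.22 CPM in WT T3 and 3.43 ± 0.748 CPM in WT control tail (SD, n = 3, n = 2 in WT control). In tail it was highest in WT T3, whereas 41 of 46 mitosis genes were highest in TRDKO control, and its difference in T3 effect between the genotypes was -3.50 ± 0.11 (adjusted p = 7.4e-46, edgeR quasi-likelihood test with Benjamini-Hochberg adjustment). In intestine gtse1 averaged 58.6 ± 1.32 CPM in TRDKO T3, 38.6 ± 0.707 CPM in TRDKO control, 51.8 ± 1.17 CPM in WT T3 and 13.3 ± 0.521 CPM in WT control (SD, n = 3 each).

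wee1, the kinase that holds cdk1 inactive, had its highest tail level in WT control. It averaged 14.4 ± 0.536 CPM in TRDKO T3, 12.9 ± 1.52 CPM in TRDKO control, 12.6 ± 0.254 CPM in WT T3 and 25.8 ± 0.719 CPM in WT control tail. rangap1, which acts on the spindle and in nuclear transport, averaged 19.9 ± 0.529 CPM in TRDKO T3, 10.8 ± 0.849 CPM in TRDKO control, 12.1 ± 1.38 CPM in WT T3 and 18.96 ± 0.775 CPM in WT control tail, and fell by 0.82 on the log2 scale in TRDKO relative to WT control tail (adjusted p = 1.6e-18, edgeR quasi-likelihood test with Benjamini-Hochberg adjustment). For both genes the TRDKO control and WT control libraries did not overlap. This adds no support, as the genes were picked after their values were seen.

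The growth arrest gene gadd45g averaged 108 ± 15.4 CPM in TRDKO T3, 42.1 ± 0.419 CPM in TRDKO control, 46.9 ± 2.94 CPM in WT T3 and 187 ± 1.16 CPM in WT control intestine (SD, n = 3 each), and 137 ± 5.03 CPM in TRDKO T3, 77.7 ± 0.572 CPM in TRDKO control, 72.3 ± 2.56 CPM in WT T3 and 253 ± 0.288 CPM in WT control tail (n = 2 in WT control). In both organs it was highest in the WT control libraries, as hspa1b was. The part of that stress state in these levels was not tested.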
